A study of Mus musculus with 4 samples.

Results

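The genes described here encode the proteins of the mitochondrial ribosome. They were selected by symbol, as Mrpl (large subunit) or Mrps (small subunit) followed by a digit, and 77 of the 24411 genes listed for late two-cell mouse embryos met this rule, 48 of them Mrpl and 29 Mrps. RNA-seq had been performed on 4 libraries of ICR embryos produced by in vitro fertilization and cultured in KSOM, each library made from a pool of 10 embryos collected at 36 hpi (hours post-insemination). For 2 libraries the culture medium contained DMSO, the vehicle, and for the other 2 it contained 6 µM 10074-G5, a small molecule that inhibits the transcription factor MYC. The treatment began at the one-cell stage, at 3 hpi in the sample protocol and at 6 hpi in the series design. No group carried a genetic alteration, and the effect of the inhibitor on MYC protein was not measured in these files. Since each library pools whole embryos, a lower transcript level in every embryo and a loss of transcript in only some of them cannot be told apart. The comparison of the 2 groups asks which transcripts of late two-cell embryos differ when MYC is inhibited.

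Mitochondria keep their own ribosome, which translates the few proteins still encoded in mitochondrial DNA, all of them subunits of the respiratory chain and the ATP synthase. The ribosomal RNAs come from mitochondrial DNA, whereas every protein of this ribosome is encoded in the nucleus, translated in the cytosol and imported. Many of these proteins have counterparts in bacterial ribosomes, and the rest are found in mitochondria alone. Early mouse embryos carry mitochondria inherited from the oocyte, and begin to transcribe their own nuclear genes in earnest at the two-cell stage. MYC pairs with MAX and binds the E-box, and genes for cytosolic ribosomal proteins and ribosome assembly are among its known targets in other cells.

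The E-box with the letters CACGTG was looked for, on both strands, in the RefSeq promoters of these genes (assembly GRCm38.p6, 250 bases before to 50 bases after each start site). Promoters were matched by symbol for 68 of the 77 genes, with 74 start sites in all. The E-box was found in 7 of the 74 promoters (9.46%), against 7.15% of all 32851 promoters and 9.71% of the promoters of genes whose expression was tested here. These 7 promoters belonged to 5 genes, namely Mrpl2, Mrpl20, Mrpl36, Mrpl37 and Mrps18c, and 3 of them were neighbouring start sites of Mrpl2 that share 1 E-box. Counted by gene, the share was 7.35% of members, 8.09% of all genes and 11.5% of tested genes, below both. The 60 bases around each of these E-boxes are given because the inhibitor is directed at a factor that binds these letters. All of the windows lie upstream of the annotated start site they were matched to. That of Mrpl36 lies inside the span of the gene (chr13:73328503-73332178), before a start site within this span. Each is written 5′ to 3′ on the strand of the gene, with the E-box in capitals:
Mrpl20 (chr4:155802818-155802877, plus strand): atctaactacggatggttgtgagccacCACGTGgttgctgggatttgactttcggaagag
Mrps18c (chr5:100798569-100798628, plus strand): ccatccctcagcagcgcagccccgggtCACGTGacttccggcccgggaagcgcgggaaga
Mrpl36 (chr13:73330939-73330998, plus strand): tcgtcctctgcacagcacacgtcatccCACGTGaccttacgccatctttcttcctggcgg
Mrpl37 (chr4:107066996-107067055, minus strand): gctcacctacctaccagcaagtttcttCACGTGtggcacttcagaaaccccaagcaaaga
Mrpl2 (chr17:46646063-46646122, plus strand): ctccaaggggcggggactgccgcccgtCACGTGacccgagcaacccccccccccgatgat

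The E-box began 33 bases upstream of the start site in Mrpl20, 43 in Mrpl36, 162 in Mrpl37 and 163 in Mrps18c, and 131, 139 and 147 bases upstream of the 3 start sites of Mrpl2. The related letters CACGCG were found in 17.6% of the promoters of the mitochondrial ribosomal protein genes, against 9.27% of all promoters and 16.2% of those of tested genes. The ETS motif CCGGAAGT was found in 12 of the 74 promoters (16.2%), against 3.89% of all and 7.5% of tested genes, and in 14.7% of the promoters of cytosolic ribosomal protein genes. The YY1 motif AAGATGGCG was found in 8 (10.8%), against 1.4% of all and 2.74% of tested genes. For the NRF1 motif, searched as a palindrome of 10 letters, these shares were 4.05%, 0.971% and 1.92%. NRF1 is known as a regulator of nuclear genes for mitochondrial proteins, and ETS and YY1 motifs are common in promoters of housekeeping genes. The shares are counts of letters in fixed windows, and binding was not measured.

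The libraries held from 18206584 to 20718690 expected counts. DMSO replicate 1 stood apart from the other 3 libraries, and its TMM factor was 0.873, against 1.04 to 1.06 in the others. The summed CPM of 5 two-cell stage genes (Zscan4c, Zscan4d, Zfp352, Tdpoz3 and Tdpoz4) was 620.4 in DMSO replicate 1 and 2015 in DMSO replicate 2, and lay at 2515 and 2549 in the inhibitor libraries. The summed CPM of 6 oocyte genes (Zp1, Zp2, Zp3, Gdf9, Bmp15 and Oosp1) was 916 and 2040.0 in the DMSO libraries and 3773 and 3165 in the inhibitor libraries. Bmp15 and Oosp1 held most of this sum, and Zp3 differed from the other 5, with a CPM of 244 and 75.1 in the DMSO and 59.1 and 63.9 in the inhibitor libraries. Markers of other cells had lower sums. The summed CPM of 7 cumulus cell genes lay between 10.4 and 42.6, with Ptx3 and Foxl2 at 0. Among these, Amhr2 was the highest in each library, at 41.1 and 13.8 in the DMSO and 8.95 and 7.01 in the inhibitor libraries. Tnfaip6 and Cyp19a1 were also detected. The sum of 4 sperm genes lay between 0.599 and 5.15, with Prm1 and Tnp2 at 0. The part of these differences in the results below was not tested, and the main values are given also without DMSO replicate 1.

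Transcripts of the mitochondrial ribosome were present at moderate levels in both groups. The median FPKM over the 77 genes was 52.4 in DMSO replicate 1, 37.5 in DMSO replicate 2, and 32 and 37.9 in inhibitor replicates 1 and 2, so that DMSO replicate 2 and the inhibitor libraries lay close together. FPKM is scaled to transcript length, and it is the only scale on which levels of different genes are compared here. The mean FPKM over the 4 libraries was at least 100 for 14 genes, between 10 and 100 for 53 and under 10 for 10. The highest mean levels were those of Mrpl22, which lines the exit tunnel of the large subunit (311), and of Mrpl48 (305), Mrpl40 (301) and Mrpl18 (294), which belong to the central protuberance, the crest of the large subunit. These 4 neighbours in the order cannot be ranked, since the FPKM of Mrpl22 alone ran from 140.2 to 453 and that of Mrpl48 from 74.8 to 487. The lowest were Mrps5 (0.225), Mrpl11 (1.57), Mrpl19 (2.3) and Mrpl17 (4.56). Mrps5 had expected counts of 20, 0, 0 and 0 in DMSO replicates 1 and 2 and inhibitor replicates 1 and 2, and was the only member left out of the tests by the filter on low counts. Among the other 76, mean levels spanned a 198-fold range.

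**Figure D1:**
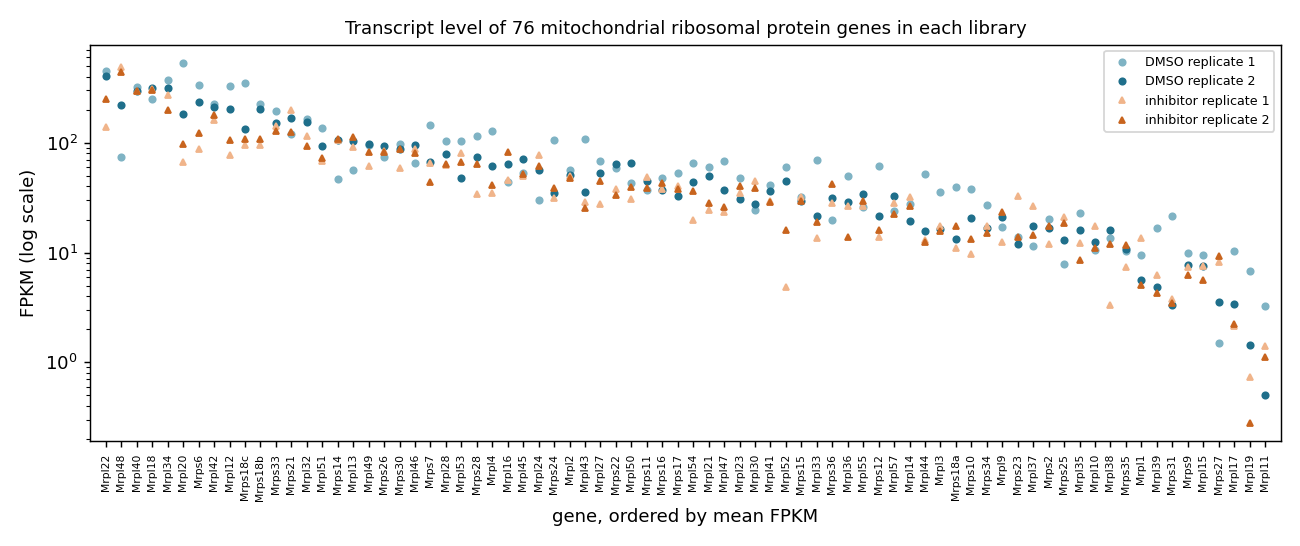
FPKM of each mitochondrial ribosomal protein gene in the 4 libraries, on a log axis, with the genes ordered by their mean over the libraries and 1 point for each library. Mean levels run from 1.57 to 311 among the 76 tested genes, and the 4 libraries of a gene usually lie much closer together than the genes do.

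Together, the 77 genes held 0.835% of all TPM in DMSO replicate 1, 0.742% in DMSO replicate 2, and 0.627% and 0.628% in the inhibitor libraries. Both inhibitor libraries were thus below both DMSO libraries, and the 2 inhibitor libraries lay closer to each other than the DMSO libraries did. The same share for 83 cytosolic ribosomal protein genes was 12% and 7.16% in the DMSO libraries and 4.14% and 4.92% in the inhibitor libraries, with the same order of groups.

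In the comparison of inhibitor with DMSO libraries, 62 of the 76 tested mitochondrial ribosomal protein genes had a lower and 14 a higher fitted level in the inhibitor libraries. Their median log2 fold change (log2FC, inhibitor against DMSO) was −0.57, with quartiles at −1.20 and −0.14, and the range ran from −3.24 (Mrpl19) to 1.70 (Mrps27). Over all 13549 tested genes, the median was 0.04 and 48.5% were lower. A log2FC below −1 was measured for 27 members and one above 1 for 2, whereas 17.8% of all tested genes were below −1 and 18.1% above 1. No member passed edgeR's quasi-likelihood test with |log2FC| above 1 and a Benjamini-Hochberg adjusted p under 0.05 (smallest adjusted p = 0.333), and no gene of the whole table did (0%). At an unadjusted p under 0.05, edgeR gave 18 members lower (10.1% of all tested genes) and 2 higher (4.72%). DESeq2, the tool named in the methods of the study, was run here with effective lengths on all listed genes, settings those methods do not state, and called 5 members lower, namely Mrpl12, Mrpl17, Mrpl19, Mrpl20 and Mrps6 (2.34% of all genes called lower), and 1 higher, Mrpl48 (0.45%). The edgeR test without a filter on low counts called 8 members, 7 lower and 1 higher (2.63% and 0.906% of all genes). DESeq2 on the genes kept by the filter also called 7 lower and 1 higher (3.54% and 0.716%), and on all genes with a count 5 lower and 1 higher, both without lengths (2.4% and 0.478%) and with them (2.41% and 0.478%). A single gene compared between 2 and 2 libraries by an exact permutation test cannot reach a two-sided p below 0.333.

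The CPM values of the groups did not overlap for 41 members lower in the inhibitor libraries (28.3% of all tested genes) and for 5 members higher in them (28.9%). On the log2 CPM scale, the gap between the groups exceeded the range within either group for 9 lower members, namely Mrpl12, Mrpl21, Mrpl32, Mrpl45, Mrpl50, Mrpl55, Mrps6, Mrps18b and Mrps22 (7.69% of all tested genes), and for 3 higher ones, Mrpl30, Mrps25 and Mrps27 (6.62%). For non-overlap, the share for lower members was above that of all genes, and that for higher members was below it. For the gap, both counts were near the shares of all genes.

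Much of the median difference rested on DMSO replicate 1. Its CPM was above that of DMSO replicate 2 for 57 of the 76 genes, and for 6487 of all 13549 tested genes. The 2 DMSO libraries differed over 2-fold for 23 members, against 4 members between the inhibitor libraries. Over all tested genes these counts were 5881 and 2972. Without DMSO replicate 1 the median log2FC was −0.21, with 51 of 76 members lower (47% of all genes lower) and none called by edgeR (0.00679% of all genes in each direction), and an unadjusted p under 0.05 was found for 10 lower (7.36%) and 3 higher members (6.44%). In that fit, as in the fit without DMSO replicate 2, the spread comes from the 2 inhibitor libraries alone. The lone DMSO library is assumed to vary like them. The 10 lower members were Mrpl4, Mrpl12, Mrpl20, Mrpl21, Mrpl22, Mrpl50, Mrpl52, Mrps6, Mrps18b and Mrps22, and the 3 higher were Mrpl48, Mrps25 and Mrps27. Without DMSO replicate 2 the median was −0.79 and edgeR called 29 members lower and 3 higher (14.1% and 14.6% of all genes).

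**Figure D2:**
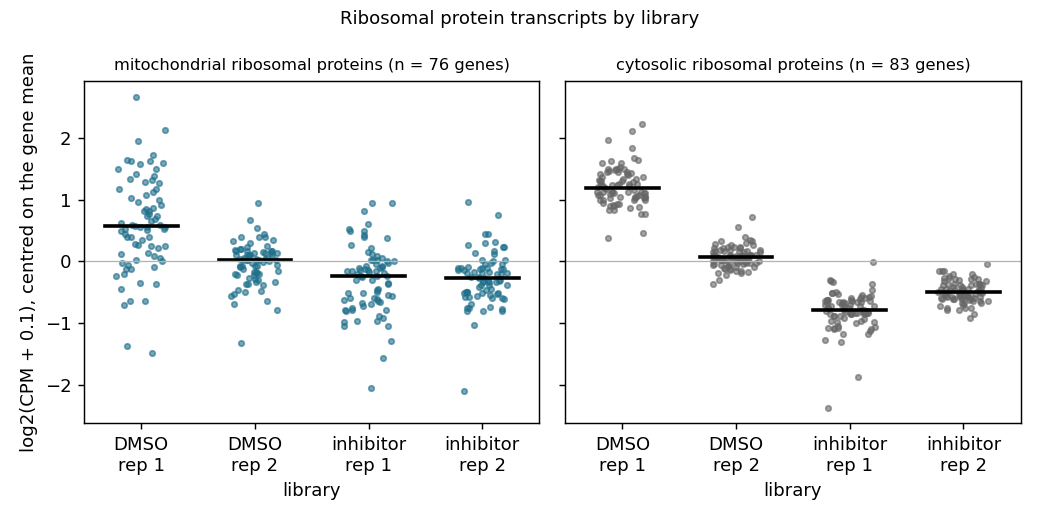
log2 CPM of each gene minus its mean over the 4 libraries, for the 76 tested mitochondrial and the 83 cytosolic ribosomal protein genes, with 1 point for each gene in each library. The median of the mitochondrial genes is 0.56 in DMSO replicate 1, 0.03 in DMSO replicate 2 and −0.23 and −0.27 in the inhibitor libraries, and that of the cytosolic genes is 1.19, 0.07, −0.78 and −0.50.

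**Figure D3:**
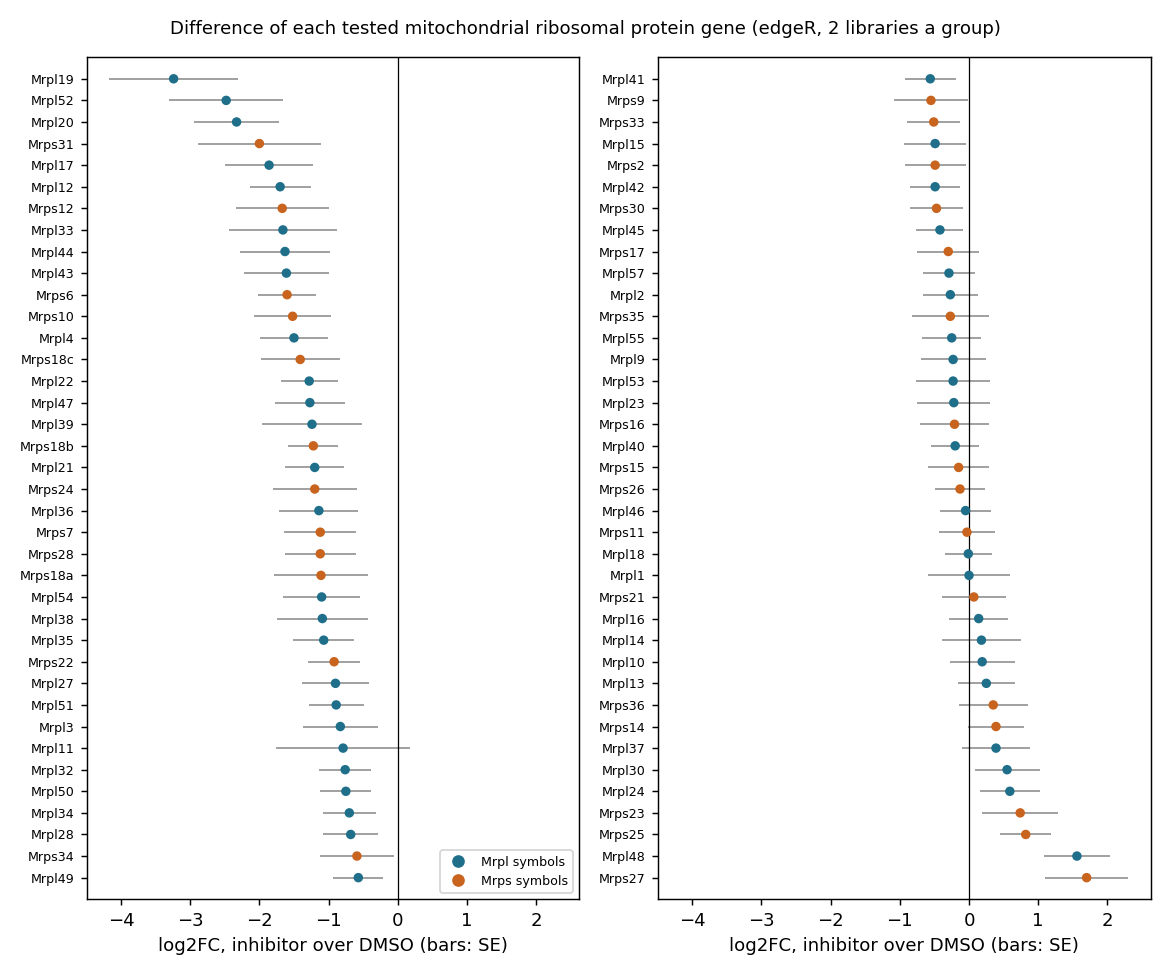
log2FC (inhibitor against DMSO) of each of the 76 tested mitochondrial ribosomal protein genes in order, with bars for its standard error. The values run from −3.24 for Mrpl19 to 1.70 for Mrps27, and 62 of the 76 are below 0.

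Among the members with the lowest log2FC and ample counts, Mrpl20, whose bacterial counterpart is an early binder of the large ribosomal RNA, lies at chr4:155802878-155808831. Its CPM was 237 and 67.8 in DMSO replicates 1 and 2 and 25.1 and 35.4 in inhibitor replicates 1 and 2. Both DMSO libraries were above both inhibitor libraries, and the DMSO libraries differed more from each other than the groups' nearest values did. Its level was 5.04-fold lower in the inhibitor group by edgeR's quasi-likelihood test (log2FC −2.33, SE 0.61, Benjamini-Hochberg adjusted p = 0.333). DESeq2 gave an adjusted p of 0.0066 (range over all alternatives 0.000189 to 0.992). Without DMSO replicate 1 the log2FC was −1.15. The E-box of its promoter is the nearest to a start site among those given above. The other genes with an E-box had log2FC values of −1.41 (Mrps18c, SE 0.57), −1.14 (Mrpl36, SE 0.57), −0.27 (Mrpl2, SE 0.40) and 0.39 (Mrpl37, SE 0.49), so that they did not share a direction. Without DMSO replicate 1 these were −0.37, −0.51, −0.04 and 0.23.

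Mrpl12 (chr11:120484637-120488754) encodes the protein of the ribosomal stalk, which draws translation factors to the large subunit, and also binds the mitochondrial RNA polymerase. Its CPM was 252 and 132 in the DMSO libraries and 49.9 and 67.9 in the inhibitor libraries. The groups did not overlap, and on the log2 scale the gap between them was wider than the range within either group. By edgeR's quasi-likelihood test its log2FC was −1.70 (SE 0.44, adjusted p = 0.333), and by DESeq2 its adjusted p was 0.0171 (range over all alternatives 0.000613 to 0.992). Without DMSO replicate 1 the log2FC was −1.14.

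Mrps6 (chr16:92058336-92112227), a conserved protein of the small subunit, had CPM values of 192 and 112 in the DMSO libraries and 42.9 and 57.6 in the inhibitor libraries. The 2 groups were apart by more than the range within either on the log2 scale, as for Mrpl12. The log2FC was −1.60 (SE 0.42, edgeR adjusted p = 0.333), and leaving out DMSO replicate 1 brought it to −1.15. DESeq2 gave an adjusted p of 0.0222 (range over all alternatives 0.00083 to 0.992). The span of Mrps6 encloses Slc5a3, so that reads of the 2 genes may have been shared between them.

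Mrpl17 and Mrpl19 were called by DESeq2 at low levels. Mrpl17 (chr7:105803782-105811087), a conserved protein near the tunnel exit, had a CPM of 76.9 and 21 in the DMSO libraries and 13.4 and 13.7 in the inhibitor libraries. The inhibitor libraries nearly coincided, and DMSO replicate 2 lay much nearer to them than to DMSO replicate 1. Its log2FC was −1.86 (SE 0.63, edgeR adjusted p = 0.333), and −0.62 without DMSO replicate 1. DESeq2 gave it an adjusted p of 0.0453 (range over all alternatives 0.000551 to 0.992). Mrpl19 (chr6:81957826-81965949), which sits at the interface of the subunits, had a CPM of 36.6, 6.51, 3.29 and 1.24 in the same order. The groups did not overlap, but most of the difference again lay between DMSO replicate 1 and the rest. Its log2FC of −3.24 (SE 0.93, edgeR adjusted p = 0.333) became −1.51 without DMSO replicate 1. DESeq2 gave it an adjusted p of 0.00841 (range over all alternatives 0.000486 to 0.678), and its span overlaps that of Gcfc2.

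**Figure D4:**
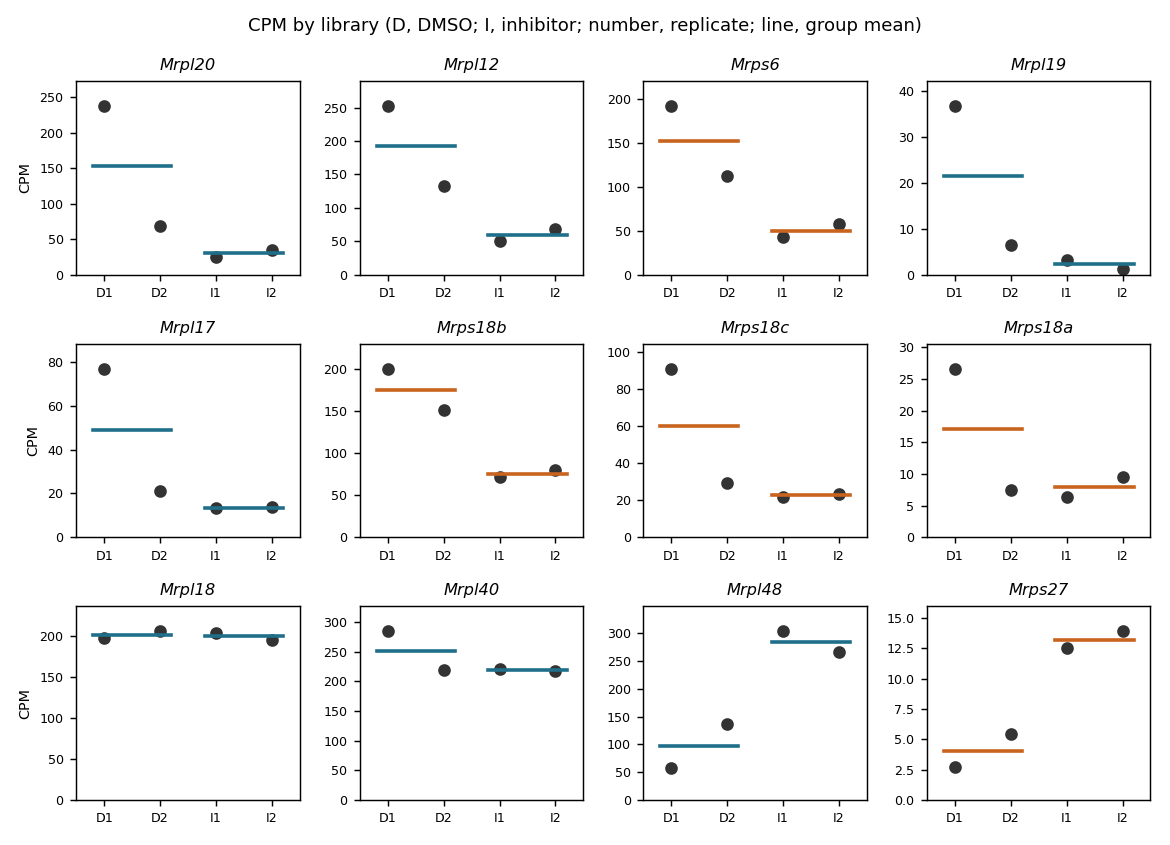
CPM, scaled with TMM factors and on a linear axis, of selected mitochondrial ribosomal protein genes in each of the 4 libraries, with 1 point for each library. Mrpl20, Mrpl12 and Mrps6 lie lower in both inhibitor libraries than in both DMSO libraries, Mrpl48 and Mrps27 lie higher, and Mrpl18 is level at 195 to 205.

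Across the large subunit, the 30 members with bacterial counterparts had a median log2FC of −0.73, with 24 lower and 9 at an unadjusted edgeR p under 0.05, all of them lower (10.1% of all tested genes lower and 4.72% higher at that p). The 20 other members, including Mrps18a and Mrps30, which sit in the large subunit despite their symbols, had a median of −0.57, with 18 lower, and 3 lower and 1 higher at that p. The 2 medians were −0.29 and −0.31 without DMSO replicate 1. Within the stalk, the 3 members did not share a direction. The anchor of the stalk, Mrpl10, had CPM values of 17 and 16.8 in the DMSO and 23.8 and 14.7 in the inhibitor libraries (log2FC 0.19, SE 0.47), and its groups overlapped. Mrpl11, at the base of the stalk, had expected counts of 161 and 24 in the DMSO and 76 and 58 in the inhibitor libraries. Its log2FC of −0.79 turned to 1.32 without DMSO replicate 1, so that only Mrpl12 of the stalk was lower with and without that library.

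Among the proteins that line the exit tunnel or ring its mouth, Mrpl22 (chr11:58170043-58179580) had a CPM of 242 and 179.7 in the DMSO and 63.5 and 110.1 in the inhibitor libraries. Both inhibitor libraries were below both DMSO libraries (log2FC −1.28, SE 0.41, edgeR adjusted p = 0.333), and the log2FC was −1.03 without DMSO replicate 1. Mrpl4 (chr9:21001252-21008839), which also reaches into the tunnel wall, had a CPM of 146, 60.2, 33.7 and 39.3 in DMSO replicates 1 and 2 and inhibitor replicates 1 and 2. The groups were apart, with a log2FC of −1.50 (SE 0.49, edgeR adjusted p = 0.333) and of −0.71 without DMSO replicate 1. Mrpl45, which tethers the ribosome to the inner membrane at the tunnel mouth, had a small log2FC of −0.42 (SE 0.34), but its CPM of 131 and 147 in the DMSO libraries lay well clear of 103 and 105 in the inhibitor libraries, and its log2FC was −0.48 without DMSO replicate 1. At the rim of the tunnel, the groups overlapped for Mrpl23 (log2FC −0.22, SE 0.53, and 0.31 without DMSO replicate 1). They did not for Mrpl24, which had a CPM of 22.9 and 36.3 in the DMSO and 50.2 and 38.9 in the inhibitor libraries (log2FC 0.59, SE 0.43, and 0.31 without DMSO replicate 1). Nor did they for Mrpl47, with a CPM of 46.2 and 21.4 in the DMSO and 13.4 and 14.6 in the inhibitor libraries. Its log2FC was −1.27 (SE 0.51), and −0.59 without DMSO replicate 1.

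Other members with a low log2FC differed in how far they rested on DMSO replicate 1. Mrpl52 (chr14:54426909-54429750), a mitochondria-specific protein of the large subunit, had expected counts of 170 and 119 in the DMSO libraries and 15 and 47 in the inhibitor libraries. Its inhibitor libraries were both low (log2FC −2.48, SE 0.82, edgeR adjusted p = 0.333), and the log2FC was −2.08 without DMSO replicate 1. By contrast, Mrpl44 and Mrpl43, which are also specific to mitochondria, depended on that library. Mrpl44 had a CPM of 68.8 in DMSO replicate 1 and of 17.4, 14.3 and 13.6 in the other 3 libraries, and its log2FC went from −1.63 to −0.31 without DMSO replicate 1. Mrpl43, whose span overlaps that of Twnk, had a CPM of 117 against 31.8, 26 and 22.7, and its log2FC went from −1.61 to −0.37. Mrpl33, a conserved protein, had a CPM of 15.4 against 4.02, 2.6 and 3.53, and its log2FC went from −1.66 to −0.38.

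Across the small subunit, the 15 tested conserved members had a median log2FC of −0.55, with 13 lower and 4 of them at an unadjusted edgeR p under 0.05 (10.1% of all tested genes). The 10 other members, most of them specific to mitochondria and Mrps18b among them, had a median of −0.39, with 7 lower, and 2 lower and 1 higher at that p (10.1% and 4.72% of all tested genes). The 2 medians were −0.18 and −0.09 without DMSO replicate 1. Mrps36, which is now counted as a subunit of the oxoglutarate dehydrogenase complex rather than of the ribosome, was in neither class and overlapped between groups (log2FC 0.35, SE 0.50). Mrps12 (chr7:28739641-28741821), at the decoding centre where codon and anticodon meet, had a CPM of 28.8, 8.42, 5.47 and 6.2 in DMSO replicates 1 and 2 and inhibitor replicates 1 and 2. DMSO replicate 2 was close to the inhibitor libraries, and the log2FC went from −1.67 (SE 0.67) to −0.51 without DMSO replicate 1. Mrps22, a mitochondria-specific protein linked to inherited mitochondrial disease, showed a smaller difference between well separated groups, with a CPM of 63.1 and 57.2 against 34.2 and 29.5. Its log2FC was −0.92 (SE 0.38, edgeR adjusted p = 0.334) and −0.83 without DMSO replicate 1.

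The 3 paralogs Mrps18a, Mrps18b and Mrps18c are all related to 1 bacterial small subunit protein, but Mrps18a is built into the large subunit, and only Mrps18c was counted above among the members with a bacterial counterpart. Mrps18b (chr17:35910380-35916440) had a CPM of 200.5 and 151 in the DMSO and 71.3 and 79.9 in the inhibitor libraries. Its groups were apart by more than the range within either on the log2 scale (log2FC −1.22, SE 0.36, edgeR adjusted p = 0.333), and the log2FC stayed at −0.98 without DMSO replicate 1. Mrps18c (chr5:100798759-100804467), whose promoter carries an E-box and an ETS motif next to each other, had a CPM of 90.9 and 29.5 against 21.6 and 23.6. The groups did not overlap, but its log2FC of −1.41 (SE 0.57) became −0.37 without DMSO replicate 1. Mrps18a (chr17:46111004-46128908) had a CPM of 26.6 and 7.52 against 6.31 and 9.54. Its groups overlapped, and its log2FC of −1.11 (SE 0.68) became 0.09 without DMSO replicate 1, so the paralogs shared a sign with all 4 libraries and not without DMSO replicate 1.

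A small number of members were higher in the inhibitor libraries. Mrpl48 (chr7:100545779-100608301), a protein of the central protuberance, had a CPM of 56.6 and 136 in the DMSO libraries and 303 and 266 in the inhibitor libraries. The inhibitor libraries were close together and above both DMSO libraries. By edgeR's quasi-likelihood test its log2FC was 1.56 (SE 0.48, adjusted p = 0.333), and by DESeq2 its adjusted p was 0.033 (range over all alternatives 0.000443 to 0.992). Without DMSO replicate 1 its log2FC was 1.08. Its 4 values stand in the same order as the summed oocyte genes given above (916, 2040.0, 3773 and 3165). Taken singly, Zp2, Bmp15 and Oosp1 share that order, and Zp1, Zp3 and Gdf9 do not. Whether Mrpl48 follows the oocyte genes was not tested. Its span overlaps those of Rab6a and Cox20b, and a named pseudogene, Mrpl48-ps, exists.

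Mrps27 (chr13:99344767-99415562), an RNA-binding protein of the small subunit, had expected counts of 45 and 102 in the DMSO libraries and 270 and 292 in the inhibitor libraries. Its groups were apart by more than the range within either on the log2 scale, at a low level (mean FPKM 5.69). The log2FC was 1.70 (SE 0.60, edgeR adjusted p = 0.333) and 1.31 without DMSO replicate 1. Mrps25, a mitochondria-specific protein of the small subunit, had a CPM of 52.5 and 72.3 against 118 and 102. Its groups were likewise well apart (log2FC 0.82, SE 0.37, edgeR adjusted p = 0.348), and the log2FC was 0.62 without DMSO replicate 1. Mrpl30, a conserved protein of the large subunit, had a CPM of 11.5 and 11 against 18 and 15 (log2FC 0.55, SE 0.47, and 0.60 without DMSO replicate 1), again without overlap.

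Another 2 of the 6 members with the highest log2FC at a mean FPKM of at least 10 did not separate the groups. Mrps14, a conserved protein of the small subunit, had a CPM of 90.3 in DMSO replicate 1 and of 172, 171 and 173 in the other libraries, so that its log2FC of 0.39 became 0.02 without that library. Mrps23 was high in inhibitor replicate 1 alone, with a CPM of 34.2 against 16.7, 12.2 and 14.2 in DMSO replicates 1 and 2 and inhibitor replicate 2.

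Not all abundant members differed between the groups. Mrpl18, which in other ribosomes carries the small RNA of the large subunit, had a CPM of 197 and 205 in the DMSO and 203 and 195 in the inhibitor libraries, the closest agreement of all 4 libraries among the members named here (log2FC −0.01, SE 0.34). Mrpl40 had a CPM of 284, 219.5, 220.5 and 217 in DMSO replicates 1 and 2 and inhibitor replicates 1 and 2 (log2FC −0.20, SE 0.35). Both proteins belong to the central protuberance, as does Mrpl48, which was higher in the inhibitor libraries. The other 3 members of this structure were Mrpl27 (log2FC −0.90, SE 0.48), Mrpl38 (log2FC −1.09, SE 0.66) and Mrpl46 (log2FC −0.05, SE 0.37), with values of −0.55, −1.06 and −0.18 without DMSO replicate 1. Its 6 members thus had log2FC values from −1.09 to 1.56 with a median of −0.13, and differences between members were not tested.

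The cytosolic ribosomal protein genes were set beside the mitochondrial ones as a reference. Of 100 genes matching Rpl or Rps followed by a digit, 83 remained once the S6 kinases, Rps19bp1 and pseudogenes by symbol were removed. All 83 had a lower fitted level in the inhibitor libraries, with a median log2FC of −1.36 (quartiles −1.62 and −1.16), and 80 did not overlap between groups (28.3% of all tested genes). None was called by edgeR, 70 had an unadjusted edgeR p under 0.05 (10.1%), and DESeq2 called 33, all lower (2.34%). Without DMSO replicate 1 the median was −0.67, with 82 lower, and without DMSO replicate 2 it was −1.83. The median of the mitochondrial genes thus lay between that of the cytosolic genes and that of all genes, which was 0.04 with all libraries and 0.06 without DMSO replicate 1, and their quartiles were wider apart. Unlike the cytosolic genes, 14 mitochondrial members were on the other side of 0.

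The mean FPKM of a mitochondrial member did not track its log2FC (Pearson r = 0.07 across 76 genes of the same 4 libraries, as a description). The 38 members with the higher levels had a median log2FC of −0.54 and the 38 with the lower levels one of −0.57. The r of log2 CPM across the 76 genes between pairs of libraries was highest for the 2 inhibitor libraries (0.94) and for DMSO replicate 2 with inhibitor replicate 2 (0.939), and lowest for DMSO replicate 1 with inhibitor replicate 1 (0.682).

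**Figure D5:**
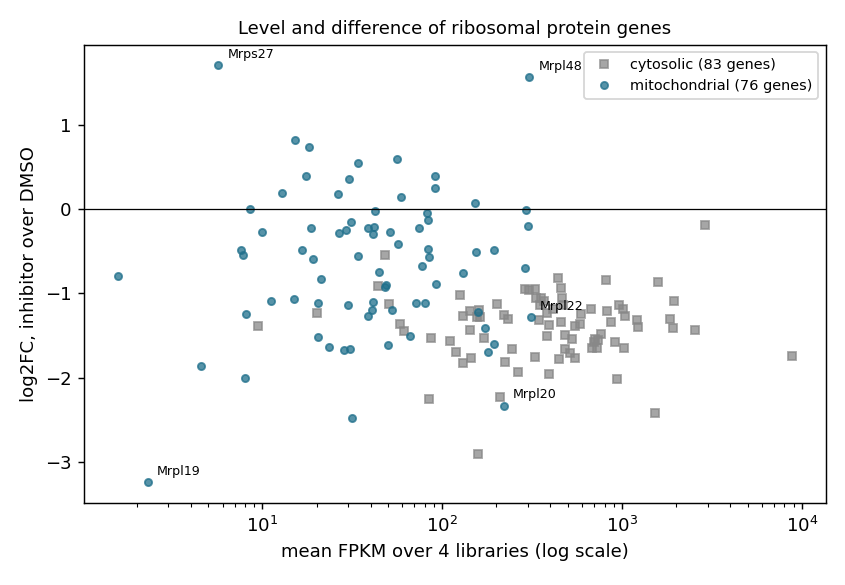
log2FC (inhibitor against DMSO) against mean FPKM on a log axis, for 76 mitochondrial and 83 cytosolic ribosomal protein genes, with 1 point for each gene. The mitochondrial genes spread from −3.24 to 1.70, and from −2.33 to 1.56 among those with a mean FPKM of at least 100 (r = 0.07 over all 76), and all 83 cytosolic genes lie below 0.

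Further proteins of the mitochondrial ribosome have symbols outside the Mrpl and Mrps series. Of these, 6 were tested, with 4 lower (48.5% of all tested genes) and a median log2FC of −0.47 (−0.21 without DMSO replicate 1). Ict1 (chr11:115403724-115412674), a peptidyl-tRNA hydrolase that is also part of the large subunit, had a CPM of 48.3 and 13 in the DMSO and 9.74 and 5.15 in the inhibitor libraries. Its groups did not overlap (log2FC −2.04, SE 0.71, edgeR adjusted p = 0.333), and DESeq2 gave an adjusted p of 0.0449 (range over all alternatives 0.00192 to 0.992). Its log2FC was −0.80 without DMSO replicate 1. The log2FC was −0.84 (SE 0.44) for Gadd45gip1 of the large subunit and −0.22 without DMSO replicate 1, and −0.57 (SE 0.35) and −0.38 (SE 0.40) for Ptcd3 and Aurkaip1 of the small subunit (−0.38 and −0.19 without that library). The small subunit proteins Dap3, which binds GTP, and Chchd1 had values of 0.57 (SE 0.44) and 0.29 (SE 0.58), and of 0.32 and 0.20 without it.

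Factors that assemble the mitochondrial ribosome were mostly lower, with 21 of 26 genes below 0 (48.5% of all tested genes), a median log2FC of −0.92 (−0.31 without DMSO replicate 1) and 5 lower at an unadjusted edgeR p under 0.05 (10.1% of all tested genes). Rnmtl1, which methylates the large ribosomal RNA, had a CPM of 15.7 and 8.95 in the DMSO and 1.99 and 1.24 in the inhibitor libraries. Its inhibitor values were far below both DMSO values (log2FC −2.92, SE 0.67, edgeR adjusted p = 0.333), and the log2FC was −2.45 without DMSO replicate 1. Ftsj2, another methyltransferase of the large ribosomal RNA, had expected counts of 41 and 24 in the DMSO libraries and 0 in both inhibitor libraries, and no fold is given at these counts.

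Among 13 translation factors and related genes of mitochondria, 8 were lower (48.5% of all tested genes) with a median log2FC of −0.21 (−0.07 without DMSO replicate 1). None had an unadjusted edgeR p under 0.05 (10.1% of all tested genes lower and 4.72% higher). Tufm, the elongation factor that delivers tRNA, had a CPM of 14.5 in DMSO replicate 1 and of 2.17, 2.09 and 2.19 in the other 3 libraries, so that its log2FC of −1.96 became −0.01 without that library. Mtif3, an initiation factor, had a CPM of 30.3 and 47.4 in the DMSO and 69.4 and 62.4 in the inhibitor libraries (log2FC 0.76, SE 0.41, and 0.49 without DMSO replicate 1). A further list held 13 genes for the transcription of mitochondrial DNA and the upkeep of mitochondrial DNA and RNA. Of these, 10 were lower (48.5% of all tested genes) with a median of −0.88 (−0.29 without DMSO replicate 1). An unadjusted edgeR p under 0.05 was found for 4, all lower (10.1% of all tested genes). Tefm, the elongation factor of the mitochondrial RNA polymerase, had a CPM of 239 and 85.1 against 44.3 and 38, and its log2FC was −1.98 (SE 0.53) and −1.03 without DMSO replicate 1. Mterf1a, a transcription termination factor, had a CPM of 20.3 and 37.1 against 12.3 and 9.83, and is 1 case in which the log2FC was lower without DMSO replicate 1 (−1.73) than with it (−1.37). Of the 58 genes outside the Mrpl and Mrps series, edgeR called none, 10 were lower at an unadjusted edgeR p under 0.05 (10.1% of all tested genes) and none higher (4.72%), and DESeq2 with default filtering called Ict1, Rnmtl1 and Tefm, all lower (2.34%).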

How the data were processed

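Libraries were grouped by their labels. The authors prepared RNA with a SMART-Seq kit, aligned read pairs to mm10 with STAR (version 2.7.10), and estimated gene levels from uniquely mapped pairs with RSEM (version 1.3.3). The expected counts deposited by the authors are RSEM's estimates per gene, not normalized (3.97% to 4.49% not whole), and were rounded. The deposited FPKM is scaled to effective length and library, and the TPM deposited by the authors to the same total. The effective lengths were used as offsets in DESeq2.

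Genes were filtered with edgeR's filterByExpr (minimum count 10, total 15), leaving 13549 genes. Libraries were scaled with TMM factors and tested with the robust quasi-likelihood test of edgeR 4.0.16 (R 4.3.3), with Benjamini-Hochberg adjustment over these genes and calls at |log2FC| above 1 and adjusted p under 0.05. The biological coefficient of variation was 0.557. CPM values are TMM-scaled. The SE of a log2FC was taken from its F value. The fit was also run on simulated counts, with no outcome given here. DESeq2 1.42.0 and limma 3.58.1 on log2(FPKM + 1) or log2(FPKM + 0.1) (mean FPKM at least 1) were alternatives, with other scalings, other filters, a replicate block and each library left out. DESeq2 on all listed genes with default filtering was added after seeing the data.

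Members and lists were chosen with earlier results of these data known, from general knowledge of the pathway. Named genes were the 4 highest and 4 lowest by mean FPKM, the 6 lowest and 6 highest log2FC at a mean FPKM of at least 10, members called by edgeR or DESeq2 in any alternative with 4 libraries, the stalk, the Mrps18 paralogs, and outside the members the other mitoribosome proteins and the 2 genes of each further list with the smallest p. Mrps22, Mrps27, Mrps30, Mrps36, Mrpl2, Mrpl21, Mrpl23, Mrpl27, Mrpl32, Mrpl36, Mrpl37, Mrpl38, Mrpl45, Mrpl46, Mrpl47, Mrpl50 and Mrpl55 were added after their values were seen, as were the promoter windows. Spans are from RefSeq on GRCm38, the assembly named mm10. Protein sequences were not used here. The study's methods call the 2 libraries of a group biological replicates, and neither they nor the labels say whether cultures or days were separate, so p-values measure the spread between these libraries. 25 of 77 member spans overlap another gene and 4 members have named pseudogenes, and as counting is not stated to use strand, reads of such pairs may be shared.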

Additional observations from a re-analysis of the deposited data

How the results depend on the processing

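The number of mitochondrial ribosomal protein genes called, 0 with edgeR, was 8 with DESeq2 on the same genes (7 lower, 1 higher), 6 with DESeq2 on all genes with a count, with or without lengths, or with default filtering (5 lower, 1 higher), 8 with edgeR without a filter, and 20 at an unadjusted p under 0.05. It stayed at 0 with limma, size factors, library totals, at least 10 counts in every library and the adjusted p alone, and ran from 0 to 32 with 1 library left out, the 32 being without DMSO replicate 2. For the cytosolic genes, also 0 with edgeR, the DESeq2 counts were 40 on the same genes, 34 on all genes, 38 with lengths and 33 with default filtering, with 33 without a filter, 70 at an unadjusted p and 0 to 80 with 1 library left out. For the 58 other mitochondrial translation genes these were 2, 2, 2 and 3, then 3, 10 and 0 to 21.

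With the replicate number as a block, 1 mitochondrial (Mrpl19) and 1 cytosolic ribosomal protein gene were called, and 0 of the 58 genes outside the Mrpl and Mrps series. The share of all tested genes called with this block was not counted. Same-numbered libraries did not deviate together (r = −0.0343). With 2 libraries a group this is 1 value, the same for both numbers by construction. The labels give the numbers no shared day, so the numbers were not taken as pairs.

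The median log2FC of the mitochondrial genes, −0.57, lay between −0.79 and −0.21 with 1 library left out, and that of the cytosolic genes, −1.36, between −1.83 and −0.67. Both extremes came from leaving out DMSO replicates 2 and 1. Library totals moved the median of all genes to 0.17, that of the mitochondrial genes to −0.41 and the number lower to 56 of 76, and limma on FPKM moved them to 0.12 and −0.36 (pseudocount 1) or 0.16 and −0.38 (pseudocount 0.1), also with 56 lower. The median level was 41.2 as FPKM and 53.4 as TPM.

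Of 792 values of 53 single genes under the alternatives, 75 passed the threshold that they did not pass before and 17, of 8 genes, changed sign. With all libraries, these were Mrpl18, at 0.12 in both limma fits and with library totals and 0.02 with at least 10 counts in every library, and Mrpl46, at 0.09 in both limma fits and 0.07 with library totals. With 1 library left out, Mrpl18 ran from −0.03 to 0.02, Mrpl46 from −0.18 to 0.10, Mrpl40 from −0.38 to 0.01, Mrpl11 from −1.62 to 1.32, Mrps18a from −1.75 to 0.09, Mrpl23 from −0.60 to 0.31, Mrpl10 from −0.16 to 0.49 and Mrpl37 from −0.08 to 0.76. The sign changed without DMSO replicate 1 for Mrpl40, Mrpl11, Mrps18a and Mrpl23, without DMSO replicate 2 or inhibitor replicate 2 for Mrpl18 and Mrpl46, and without inhibitor replicate 1 for Mrpl10 and Mrpl37. The cause was not tested.

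With 2 libraries a group, and DMSO replicate 1 apart from the other 3, these data cannot tell which DMSO library is nearer to the usual untreated level. Some members rest on few counts, and mean FPKM, which is scaled to length, does not show which. Mrpl52 (mean FPKM 31.6) had expected counts of 170, 119, 15 and 47 in DMSO replicates 1 and 2 and inhibitor replicates 1 and 2. Those of Mrpl17 (mean FPKM 4.56) were 1285, 397, 288 and 287.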
